A study of Arabidopsis thaliana with 12 samples.

Results

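Fibrillins, also called plastoglobulins, are a family of plastid proteins, and 3 of their genes in Arabidopsis thaliana are described here: AT2G35490, AT5G19940 and AT1G51110. They were picked as members of that family, with earlier results of these data known. Each gene had 1 probe annotated to it alone, so the account covers 3 probes of the 3439 on the array and 3 of the 689 genes that had at least 1 probe to themselves. All 12 samples were total RNA of wild-type plants of the ecotype Wassilevskija. The control group was 6 samples labelled water, and the treated group was 6 samples labelled as kept for 6 h in MS with 60 mM sucrose. MS (Murashige and Skoog) is a mineral salt medium for plant tissue culture, so the groups differ by salts as well as sugar. The labels give no time for water and no plant organ, and they do not say what the sample numbers 1 to 6 stand for or whether samples came from separate plants. P-values therefore describe the scatter among these 12 samples and no wider population, and that scatter may be technical.

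Fibrillins coat plastoglobules, the lipid droplets attached to thylakoid membranes, and some of them lie on the thylakoids themselves or in the stroma. Plastoglobules store and process plastoquinone, tocopherol (vitamin E), carotenoids and phytol esters, and they grow and shrink with light, stress and ageing of the leaf. Plastoglobule-coating fibrillins are known to keep the droplets from merging, and members of the family have been tied to photoprotection and to jasmonate production in plastids. In bulk RNA, fewer cells of a type and less RNA per cell cannot be told apart.

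The deposited values were linear probe intensities in arbitrary units, with 13.6% of all values at exactly 0. Sample medians were 0.171 to 0.188 in water and 0.309 to 0.339 after MS with sucrose, so most of the array was brighter in the treated samples. The offset added before taking log2 was 0.0718, the 10th percentile of the values above 0. The 25th percentile of those values, 0.143, serves below as the upper edge of the dim range. Of 9 genes listed as markers of green tissue, 6 had a probe of their own, and 5 of these were above 0 in every sample. The exception was SBPASE, of the Calvin cycle, with a listed 0 in 11 of the 12 samples. What a listed 0 stands for was not tested, so it is not read here as absence of the RNA. None of the 5 root markers or 3 seed markers had such a probe, so the organ could not be checked. The number of arrays limits the precision.

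AT2G35490 was the brightest of the fibrillin probes and the only one above the dim range in all 12 samples. Its intensity in water samples 1 to 6 was 0.223, 0.193, 0.197, 0.224, 0.183 and 0.240. After MS with sucrose it was 0.257, 0.213, 0.185, 0.315, 0.176 and 0.239 in the same order. The groups overlapped, with sample 4 after MS with sucrose the highest and sample 5 the lowest of all 12. The treated mean of 0.231 ± 0.0517 (SD, n = 6) compares with a water mean of 0.210 ± 0.0222 (SD, n = 6), and 3 of the 6 same-numbered pairs were higher and 3 lower.

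Against the other probes of its sample AT2G35490 stood lower after MS with sucrose. It was brighter than a median of 57.1% of probes in water (49.1% to 59.6%) and than a median of 38.4% after MS with sucrose (30.8% to 49.2%). After quantile normalization, which gives the samples a common distribution, its level fell by 0.55 on the log2 scale (SE 0.11, 95% interval -0.80 to -0.30, adjusted p = 0.00282 by limma). The normalized value was below the water mean in 6 of 6 treated samples and lower in 6 of 6 same-numbered pairs. Normalized log2 levels ran from -1.70 to -1.38 in water and from -2.32 to -1.70 after MS with sucrose, where sample 4 lay just above the lowest water value.

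The fall of AT2G35490 is a fall relative to the rest of the array. Without normalization the log2 difference was 0.09 (SE 0.11, adjusted p = 0.553 by limma), while the median of all probes moved by 0.38, which leaves -0.29 relative to that median. Among the fibrillins it was the only 1 of 3 to pass the threshold of 0.05 after quantile normalization, where 37.5% of all probes passed, 18.1% as higher and 19.3% as lower. On the deposited scale none of the 3 passed in this fit (unadjusted p = 0.451, 0.203 and 0.0970 for AT2G35490, AT5G19940 and AT1G51110), where 51.1% of all probes did, 44.2% as higher and 6.89% as lower.

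**Figure D1:**
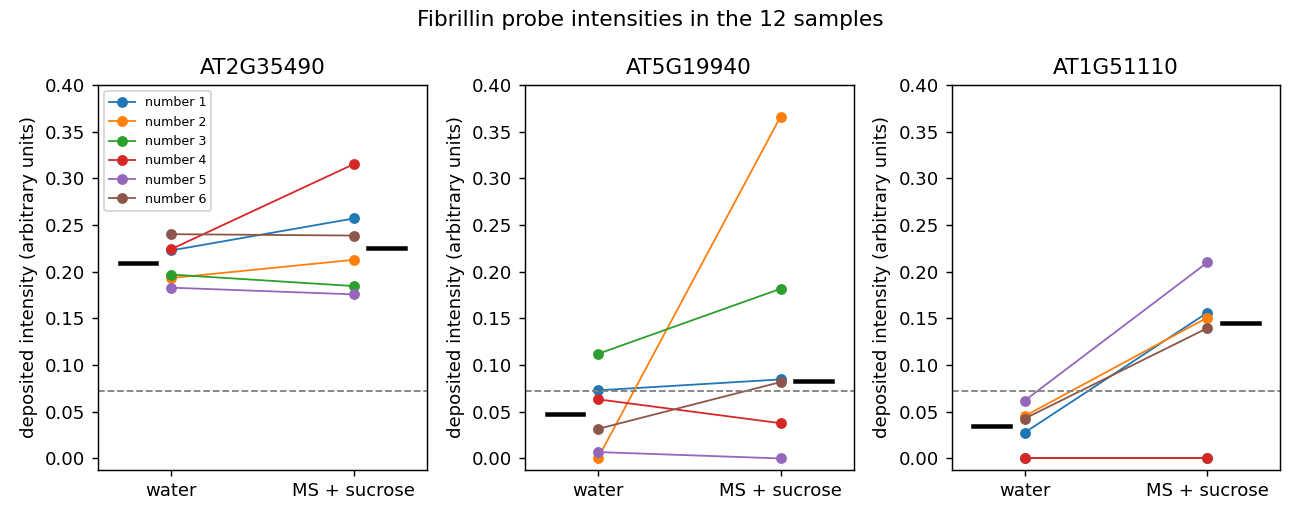
Deposited intensity (arbitrary units) of the 3 fibrillin probes in the 12 samples; lines join samples of the same number, black bars are group medians and the dashed line is the offset of 0.0718. AT2G35490 stays near 0.2 in both groups, AT5G19940 scatters from 0 to 0.366, and AT1G51110 is brighter after MS with sucrose in 4 numbers and sits at 0 in both groups for numbers 3 and 4, whose lines coincide.

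AT1G51110 was the dimmest of the fibrillin probes, and its zeros fell on the same sample numbers in both groups. In water samples 1 to 6 its intensity was 0.0276, 0.0453, 0, 0, 0.0619 and 0.0427, so every water value lay below the offset. After MS with sucrose it was 0.156, 0.151, 0, 0, 0.210 and 0.140. Samples 3 and 4 were listed at 0 in both groups, and in the other 4 numbers the treated sample was brighter. No fold is given, since every water value was near the floor. In those 4 numbers the lowest treated value, 0.140, lay above the highest water value, 0.0619. Over all 12 samples its groups overlapped, while for 29.5% of all probes every treated value lay above every water value. Those 4 numbers were set apart by the zeros of this same probe. Separation within them is a weaker condition than over all 12 samples, and no share of all probes was taken for it. Of all 3439 probes, 32 were at 0 in exactly 4 samples. Among them AT1G51110 was the only 1 at 0 in numbers 3 and 4 of both groups and above 0 in the other 8 samples. That pattern was taken from its own values, so the count is not a test. The matching pattern was found in 5 probes for numbers 1 and 2 and in 0 for numbers 5 and 6.

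Over all 12 samples the normalized difference of AT1G51110 was 0.40 (SE 0.35, 95% interval -0.35 to 1.16, adjusted p = 0.401 by limma) and did not pass. The result depends on how the numbers and the zeros are handled. With the sample number as a replicate block the same difference of 0.40 had an SE of 0.12 and passed (adjusted p = 0.0442 by limma), as 18.6% of all probes did in the same direction. With zeros set to missing, which leaves 4 samples in each group, the difference was 0.67 (SE 0.19, adjusted p = 0.0149 by limma), and 22.5% of the probes then tested passed as higher. A setting chosen after the values were seen left numbers 3 and 4, where this probe was at 0, out of each group. There 442 of 3439 probes passed as higher, and the difference of AT1G51110 was 0.62 (SE 0.12, adjusted p = 0.00801 by limma). It missed the threshold on averages of adjacent numbers, 3 against 3 (adjusted p = 0.601 by limma, and adjusted p = 0.194 with a replicate block on these averages), and under median centring the difference was 0.01 (adjusted p = 0.981 by limma). In its rank among the probes of a sample it moved from 17.9% to 22.6% of probes dimmer in the 4 water samples above 0 to 26.3% to 35.0% in the matching treated samples.

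Because the offset exceeded every water value of AT1G51110, the size of its log2 difference depends on the offset. It was 0.28 with the offset at the 25th percentile (adjusted p = 0.339 by limma) and 0.68 with the offset at the 1st percentile (adjusted p = 0.622 by limma). What a listed 0 stands for is not stated by the labels.

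AT5G19940, also a dim probe, had a mean of 0.0866 over the 12 samples, against 0.0695 for AT1G51110. Its water intensities, in the order of the numbers, were 0.0729, 0, 0.112, 0.0634, 0.00686 and 0.0316. After MS with sucrose they were 0.0846, 0.366, 0.182, 0.0378, 0 and 0.0818. The groups overlapped, and sample 2 was the lowest in water, listed at 0, and the highest after MS with sucrose. In water all 6 values lay in the dim range and 4 below the offset. After MS with sucrose 4 lay in the dim range and 2 below the offset.

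The normalized difference of AT5G19940 was 0.23 (SE 0.40, 95% interval -0.65 to 1.12, adjusted p = 0.686 by limma), an interval that holds changes in both directions. In deposited intensity the treated sample was the brighter one in 4 of 6 same-numbered pairs, while on the normalized scale it was so in 2. Number 2 decided the sign: without it in both groups the difference was -0.18 (adjusted p = 0.724 by limma), and without the treated sample 2 alone it was -0.02 (adjusted p = 1 by limma). A change of AT5G19940 was thus not detectable at this signal.

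**Figure D2:**
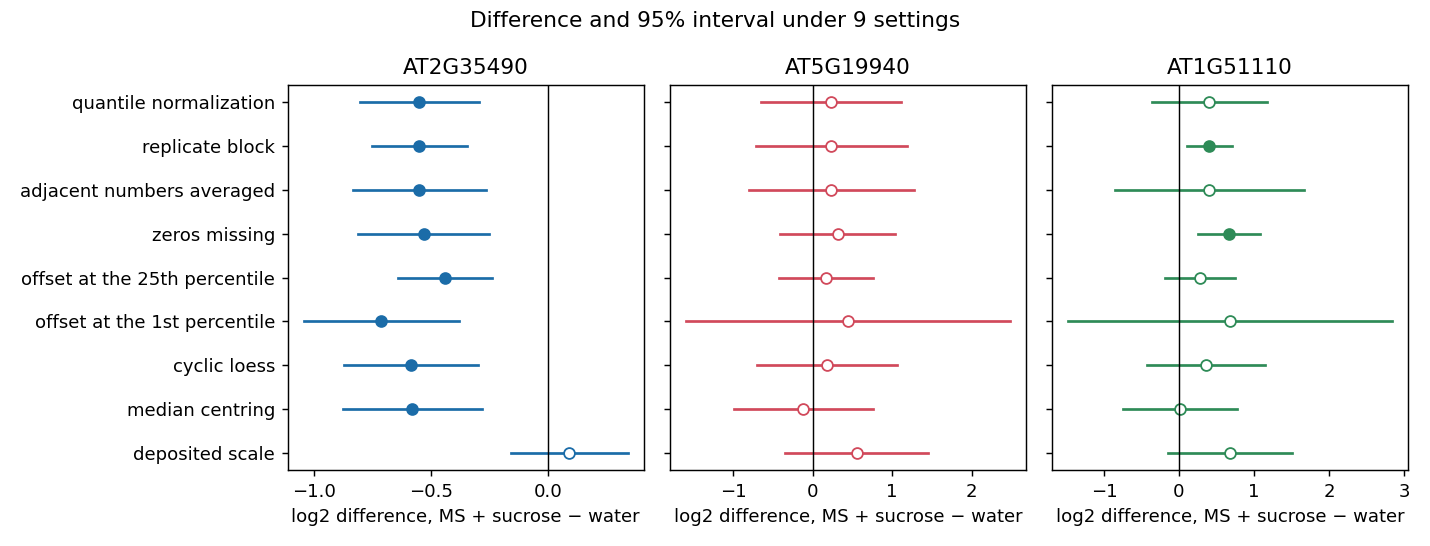
Log2 difference, MS with sucrose minus water, with its 95% interval for the 3 fibrillin genes under 9 settings; filled points passed an adjusted p of 0.05 by limma and open points did not. AT2G35490 is below 0 and passes except on the deposited scale, AT5G19940 spans 0 throughout, and AT1G51110 passes with the replicate block and with zeros missing.

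Whether the fibrillin genes changed by unequal amounts was tested on the normalized log2 difference between their probes within each sample. Of the 3 pairs compared, AT2G35490 against AT1G51110 came closest to the threshold. Its within-sample difference averaged 1.74 ± 0.54 (SD, n = 6) for water and 0.78 ± 0.85 (SD, n = 6) for the treated samples, a change of -0.96 (p = 0.0455, adjusted p = 0.136, exact two-sided permutation test) that had this sign in 6 of 6 same-numbered pairs. AT2G35490 against AT5G19940 was at -0.79, lower in 5 of 6 pairs (p = 0.0974, adjusted p = 0.146, exact permutation test). AT5G19940 against AT1G51110 was at -0.17, lower in 5 of 6 pairs (p = 0.788, adjusted p = 0.788, exact permutation test). The smallest p that the splits into 6 and 6 allow is 0.00216. None of the pairs was shown to differ in its change after adjustment. Without normalization, where a scale factor shared by the probes of a sample drops out apart from the offset, the first pair was at -0.59 (adjusted p = 0.516, exact permutation test). Of 30 alternatives this pair passed in 1, after quantile normalization without the treated sample 4, at -1.21 (adjusted p = 0.0390, exact permutation test).

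**Figure D3:**
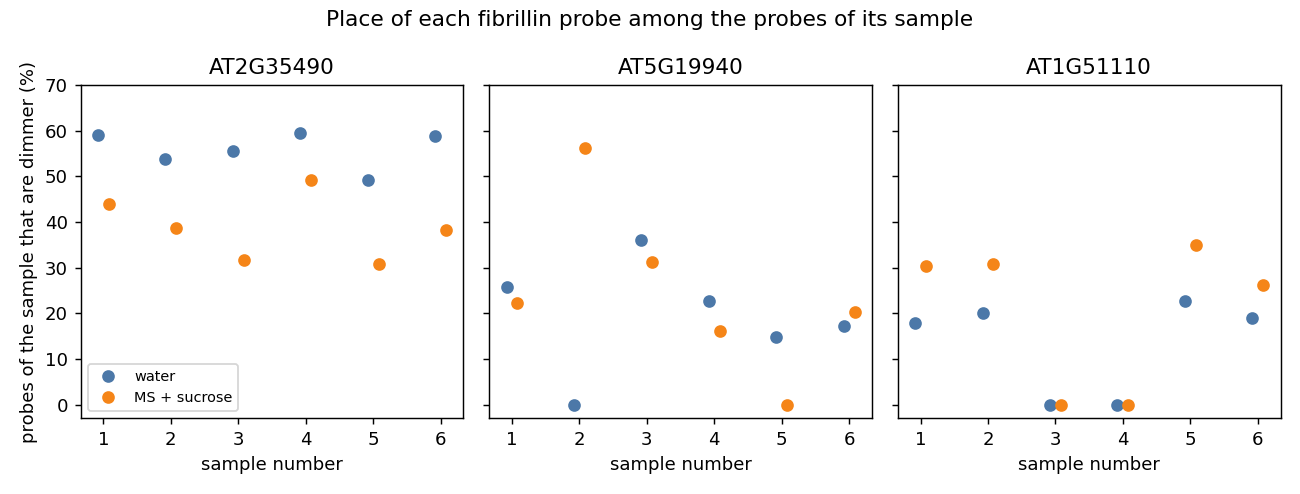
Share of probes in the same sample that were dimmer than each fibrillin probe (percent) by sample number, in water and after MS with sucrose. AT2G35490 is lower after MS with sucrose at every number, AT1G51110 is higher at 4 numbers and at 0 for numbers 3 and 4, and AT5G19940 shows no steady order.

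On the deposited scale the typical difference between groups varied with brightness, so each fibrillin probe was set beside probes of like brightness. AT2G35490 lay in the fifth decile of mean intensity, 344 probes between 0.200 and 0.259. The median difference of that decile on the deposited log2 scale was 0.55, and 70 of its probes had a lower difference than the 0.09 of AT2G35490. After quantile normalization 22.1% of the decile was called lower and 16.3% higher. AT5G19940 and AT1G51110 both lay in the second decile, in a range of mean intensity of 0.0105 to 0.0895. Its median on the deposited scale was 0.27, against 0.55 for AT5G19940 and 0.68 for AT1G51110. In that dim decile 7.27% of probes were called higher and 8.72% lower after quantile normalization, less than over the array. A listed 0 in at least 1 sample was found for 25.1% of all probes, and for 2 of these 3 genes.

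**Figure D4:**
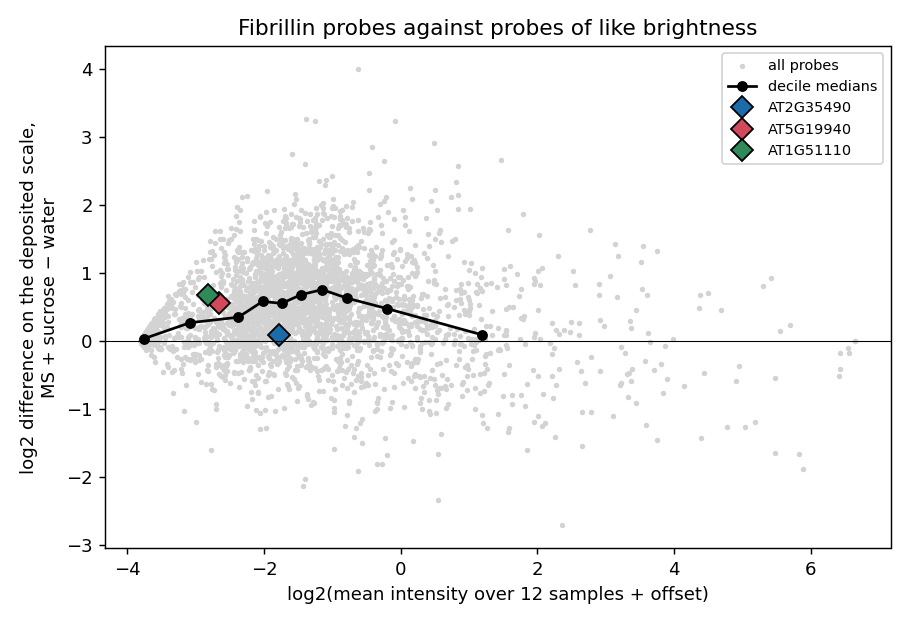
Log2 difference on the deposited scale, MS with sucrose minus water, against log2 of mean intensity plus offset for all probes (grey), with the medians of 10 brightness deciles (black) and the 3 fibrillin probes (diamonds). AT2G35490 lies below the line of its decile, 0.09 against 0.55, and the other fibrillin probes lie above the line at the dim end.

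Beyond these genes, a list of 14 fibrillin family genes written from general knowledge had 2 further members with a probe of their own, and neither passed. AT5G09820 ran from 0.0794 to 0.259 in water, where its median of 0.139 itself lay in the dim range. It reached 0.292 after MS with sucrose (median 0.226), with 2 treated samples in the dim range. Its normalized difference was -0.30 (SE 0.23, adjusted p = 0.360 by limma), and on the deposited scale it was 0.28. AT2G46910 ran from 0.0112 to 0.126 in water (median 0.0535) and from 0 to 0.241 after MS with sucrose (median 0.102), where 2 samples were listed at 0. Its normalized difference was -0.13 (SE 0.39, adjusted p = 0.832 by limma). Both genes were higher in 3 of 6 same-numbered pairs, and their groups overlapped. Of the 5 family genes measured alone, 0 rose and 1 fell, with a median difference of -0.13 against 0.00 over all probes; 1 of 5 is near the 19.3% of all probes called lower. Without normalization none of the 5 passed in either direction, and the median was 0.28 against 0.38 over all probes.

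A further 5 probes, named A to E here, were each annotated to several genes, all of them in the family list, and no single gene can be read from them. Probe D, annotated to 2 family genes, was the one with a call. It ran from 0.0548 to 0.114 in water (median 0.0873) and from 0.250 to 0.492 after MS with sucrose (median 0.270). All 6 treated samples lay above all 6 water samples in deposited intensity, as they did for 29.5% of all probes. Its level rose by 0.74 (SE 0.17, adjusted p = 0.00575 by limma) after quantile normalization and by 1.30 on the deposited scale (adjusted p = 3.73e-05 by limma). On averages of adjacent numbers its adjusted p was 0.0433 by limma. With fewer samples, without numbers 3 and 4 (0.80, adjusted p = 0.0535 by limma) or 5 and 6 (0.66, adjusted p = 0.0603 by limma), the difference stayed near this size and missed the threshold. These probes were singled out after their values were seen.

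Probe A was annotated to 4 family genes, AT2G35490 among them. It ran from 0.302 to 0.674 in water (median 0.544) and from 0.813 to 0.975 after MS with sucrose (median 0.888), again without overlap. After quantile normalization its difference of 0.20 did not pass (SE 0.15, adjusted p = 0.349 by limma), while on the deposited scale it rose by 0.72 (adjusted p = 0.00173 by limma). The signal of AT2G35490's own probe and that of the shared probe were not tested against each other. The difference of probe A was 0.07 without water sample 6, its lowest, and 0.01 without numbers 5 and 6 of each group. Probe B, annotated to 2 family genes, lay between 0 and 0.129 in the 12 samples and was at -0.24 (adjusted p = 0.381 by limma). Probe C was listed at 0 in 11 samples and probe E in 10, so neither carried a readable level.

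**Figure D5:**
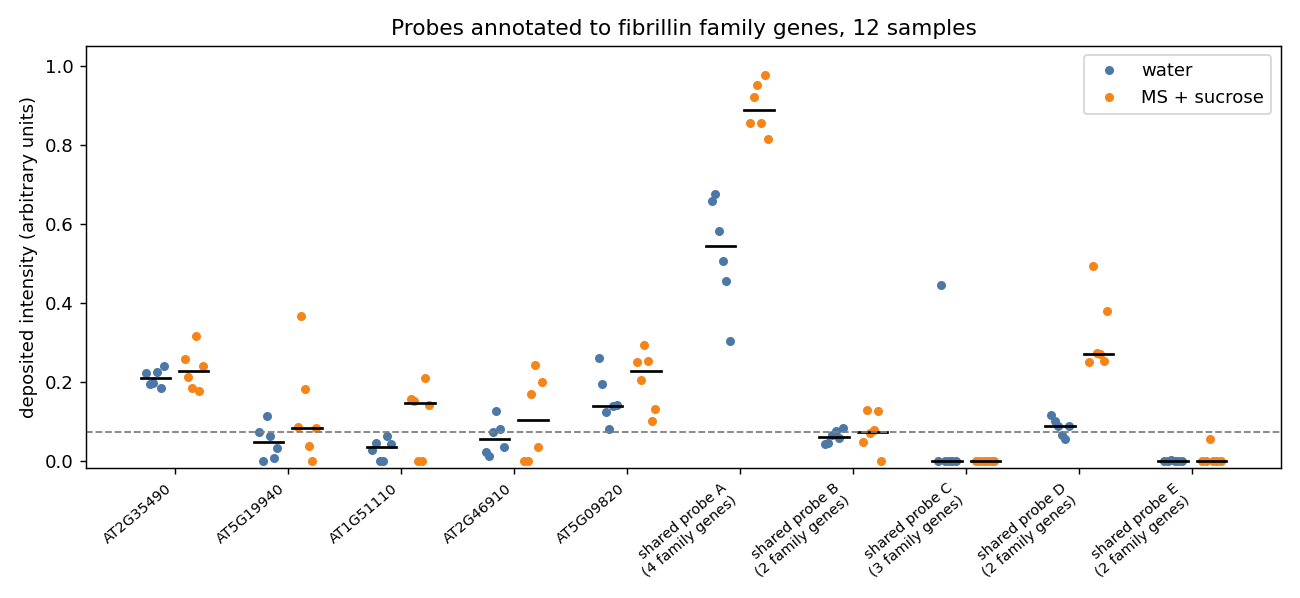
Deposited intensity (arbitrary units) of the 5 fibrillin family genes measured alone and of the 5 probes shared by several family genes, in water and after MS with sucrose; points are samples, black bars group medians and the dashed line the offset of 0.0718. Only shared probes A and D show groups that do not overlap.

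Other genes of plastoglobules and of the lipids they hold were counted from lists written for this comparison, in which few genes had a probe of their own. Of 20 other plastoglobule protein genes 4 were measured. AT1G32220 among them was listed at 0 in 11 samples, so it carried no readable level. After quantile normalization 0 rose and 1 fell, and on the deposited scale 1 rose and 0 fell. These counts are too small to set apart from the shares of all probes given above. AT4G13200 fell by 0.77 (SE 0.16, adjusted p = 0.00322 by limma). Its deposited intensity was 0.287 ± 0.0533 (SD, n = 6) in water and 0.266 ± 0.0962 (SD, n = 6) in the treated samples. As for AT2G35490, the call of AT4G13200 was absent on the deposited scale (-0.13, adjusted p = 0.622 by limma), while without numbers 3 and 4 the difference stayed at -0.68 and missed the threshold (adjusted p = 0.0585 by limma). AT3G27110, singled out after its values were seen as the riser on the deposited scale at 0.92, was at 0.36 after normalization (adjusted p = 0.245 by limma).

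In tocopherol and plastoquinone synthesis 2 of 11 genes were measured, and they moved in opposite directions. AT1G74470, the geranylgeranyl reductase that supplies the phytyl tail of chlorophyll and tocopherol, rose by 0.94 (SE 0.10, adjusted p = 2.31e-05 by limma). Its deposited intensity went from 1.78 ± 0.147 to 3.79 ± 0.538 (SD, n = 6 each), and under median centring the rise was 0.39. AT1G78620 fell by 0.49 (SE 0.11, adjusted p = 0.00491 by limma), but was at -0.07 on the deposited scale (adjusted p = 0.662 by limma). With fewer values AT1G78620 kept its sign and missed the threshold: on averages of adjacent numbers it was at -0.49 (adjusted p = 0.0736 by limma), without numbers 1 and 2 at -0.43 (adjusted p = 0.0623) and without 3 and 4 at -0.37 (adjusted p = 0.0879). The single measured carotenoid gene of 11, Z-ISO (AT1G10830), which encodes an isomerase of carotene synthesis, was at -0.16 (adjusted p = 0.568 by limma). The single measured gene of 8 for thylakoid lipids and membrane shape, FZL (AT1G03160), a thylakoid-shaping dynamin-like protein, was at 0.10 (adjusted p = 0.515 by limma) and rose on the deposited scale by 0.70. None of 9 genes of plastid jasmonate synthesis had a probe of its own.

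Among genes measured alone and at 0 in at most 2 samples, the profiles nearest to AT2G35490 over the 12 samples were those of AT5G03900, AT1G62780 and AT4G04370. Likeness was the root mean square difference between log2 profiles centred on their own means, and it was 0.14, 0.16 and 0.17 for these genes, against a median of 0.49 over the 571 candidates. Their normalized differences between groups were -0.53, -0.56 and -0.62, near that of AT2G35490. Each was likewise flat in deposited intensity, with log2 differences of 0.00, 0.09 and -0.01. For AT1G51110 the nearest were AT1G65370, AT1G79220 and AT1G24310 at 0.38, 0.40 and 0.41, against a median of 0.72 over 572 candidates. For AT5G19940 they were AT4G39570, UBA1A (AT2G22090) and AT4G29750 at 0.47, 0.54 and 0.54, against a median of 0.77 over 571 candidates. The spread of each member's own profile was 0.61 for AT1G51110 and 0.68 for AT5G19940. AT1G51110 is itself at 0 in 4 samples, so genes that share its zeros were not among the candidates. The 12 samples share groups and numbers, so likeness of this kind includes both.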

How the data were processed

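The deposited values are linear intensities, 1 per probe and sample. The authors' background and scaling steps are not given in the labels or the file. Values were used as log2(intensity + 0.0718), since over 1% were 0. Only the setting on the deposited scale with zeros missing used no offset. They were quantile normalized, since sample medians lay 0.76 apart. The fit over all probes used limma 3.58.1 under R 4.3.3 (lmFit, then eBayes with trend, 6 against 6, two-sided, Benjamini-Hochberg over 3439 probes, threshold 0.05). Pairs of genes were compared by exact permutation, adjusted over 3 pairs. Figures used matplotlib 3.10.9.

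Of the probes, 692 had 1 gene symbol, 870 several and 1877 none. Entrez identifiers matched 690 of the 692 to the TAIR10.1 gene table, which gave 689 genes (brightest probe of a gene). No coordinates were taken.

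Named genes are the fibrillins, up to 2 risers and 2 fallers per list (or up to 2 as values), and the 3 nearest profiles per fibrillin. Members and lists were chosen with earlier results of these data known.

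Deviations from group means correlated at 0.174 to 0.390 across probes for the 6 same-numbered pairs. Differently numbered samples were not compared across groups, so whether the numbers pair the samples was not tested. Adjacent numbers also correlated (0.121 to 0.309), so p-values over 12 samples may be too small. The fit was tested on simulated data. Alternatives were other scalings, offsets, zeros missing, a filter on dim probes, the replicate block, adjacent numbers averaged, other variance models, and samples left out.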

Additional observations from a re-analysis of the deposited data

How the results depend on the processing

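AT2G35490 passed as lower in 31 of 35 alternatives. Of the 35, 21 left samples out under the same quantile normalization (-0.62 to -0.49) and are not separate results. AT2G35490 missed with a replicate block on adjacent averages (-0.55, adjusted p = 0.0582 by limma). Its sign turned in all settings that kept the deposited scale: 0.0888 as such and in a replicate block fit, and 0.11 when zeros were missing. With zeros missing on that scale no offset was added, so values of that setting do not compare in size with the others. AT5G19940 passed in 0 of 34; it was at -0.12 under median centring, 1.46 (SE 0.79, adjusted p = 0.130 by limma) on the deposited scale with zeros missing, and -0.19 to 0.56 with samples left out. AT1G51110 passed in 5 of 34: with zeros missing (0.67), with a replicate block (0.40), without numbers 3 and 4 (0.62), and on the deposited scale with zeros missing (1.93) or a replicate block (0.68). Its values with samples left out were 0.26 to 0.62. The filter on dim probes removed AT5G19940 and AT1G51110, which then had no value. None of the 3 fibrillin genes had another probe of its own, so that alternative was not run.

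Probes called higher and lower numbered 624 and 665. They were 1519 and 237 on the deposited scale (1533 and 240 with a replicate block, 1576 and 239 with zeros missing), 487 and 1271 under median centring, 349 and 402 with adjacent numbers averaged, and 262 and 294 with a replicate block on these. With samples left out they were 442 to 619 and 495 to 673. The split follows the scaling; other causes were not tested.

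The change of AT2G35490 less that of AT5G19940 was -1.13 to -0.38 with samples left out, and less that of AT1G51110 -1.21 to -0.76. The change of AT5G19940 less that of AT1G51110 was 0.15 with zeros missing and -0.55 to 0.17 with samples left out. With zeros missing on the deposited scale, where no offset was added, it was 0.61. With the pairs tested within same-numbered samples (replicate block, exact sign-flip test, smallest p 0.0313), the adjusted p was 0.141, 0.0938 and 0.656. In the fits of single probes, the block brought AT1G51110 under the threshold after quantile normalization (adjusted p = 0.0442 by limma). It did so on the deposited scale too (adjusted p = 0.0295 by limma). On averages of adjacent numbers the block took AT2G35490 over the threshold, from an adjusted p of 0.0260 to 0.0582 by limma. No call of AT5G19940 changed with the block. Dim signal limits AT5G19940 and AT1G51110. Settings pairing adjacent averages, leaving out adjacent numbers, or keeping the deposited scale with missing zeros or a block were chosen after seeing the data.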
